A study of Mus musculus with 40 samples.

Results

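Mouse embryonic stem (mES) cells that lack the lamin B receptor, LBR, were followed into the epiblast-like state, and the RNA of these LBR knockout (LBRKO) epiblast-like cells (EpiLCs) is described here. The 4 LBRKO EpiLC libraries, labelled replicates 1 to 4, were taken from a series of 40 libraries by genotype and stage, and were compared with the 8 wild-type (WT) EpiLC libraries, replicates 1 to 8. They were compared a second time with WT replicates 5 to 8 alone, which were sequenced to the same depth as LBRKO. The study asked what the lamins and LBR, which hold heterochromatin at the nuclear periphery, do to gene and transposon expression when pluripotent cells leave the naive state.

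EpiLCs were made from naive mES cells by 48 h of culture with FGF (20 ng/mL) and Activin A (12 ng/mL), and each library came from a well of its own. LBRKO cells were made from WT mES cells with Cas9 and a single guide to exon 2 of *Lbr*, which leaves small insertions or deletions. Several LBRKO clones were made, and the labels do not say which clone a library came from, so that p-values measure the spread between wells and not between independent lines. Per the study's methods, the WT cells were mostly karyotypically normal but held populations that had lost the Y chromosome or had gained chromosomes 6 and 8. The other mutants, used below for 1 comparison, lacked all lamins (TKO) or all lamins and LBR (QKO). Both carried deletions of *Lmna*, *Lmnb1* and *Lmnb2*, and QKO cells were 1 clone made from TKO cells. Per the methods, TKO cells were karyotypically abnormal, with an extra chromosome 8 in both their populations and loss of the Y chromosome in 1.

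LBR is a protein of the inner nuclear membrane. Its amino-terminal part binds B-type lamins and heterochromatin, and its membrane-spanning part is a sterol reductase that acts in cholesterol synthesis. Naive mES cells, which resemble the inner cell mass before implantation, express transcription factors such as ESRRB, NR0B1, ZFP42 and KLF4. During passage to the epiblast-like state these naive factors are switched off, the core factors OCT4 and SOX2 stay on, and genes of the post-implantation epiblast such as *Fgf5*, *Otx2* and the de novo DNA methyltransferases are switched on.

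The guide fell in exon 2 of the 14 exons of *Lbr*, which lies on chromosome 1 from 181665943 to 181666121 in GRCm39, with coding sequence from 181665943 to 181666107. Below is the stretch of this exon around its only SacI site, the site whose loss the study used to screen clones. It is shown because it is the place where the LBRKO allele was made. The sequence is 5′ to 3′ on the gene's minus strand, with the SacI site in capitals.
Lbr exon 2 chr1:181666019-181666084: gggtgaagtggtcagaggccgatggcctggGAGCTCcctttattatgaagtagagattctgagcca

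*Lbr* (ENSMUSG00000004880.12, chromosome 1, 181641631 to 181672984, minus strand) was still transcribed in the knockout, as small frameshifts in an early exon allow. Levels are given as CPM, that is, counts scaled to a library's size with edgeR's TMM factors. *Lbr* had 403, 392, 196 and 233 CPM in LBRKO replicates 1 to 4, and ran from 364 to 513 CPM in WT with a median of 421. Replicates 1 and 2 lay within the WT range, and replicates 3 and 4 lay below every WT library. The mean of 306 ± 107 CPM in LBRKO against 429 ± 58.0 CPM in WT (SD, n = 4 and 8) was a log2 fold change of -0.49 ± 0.14 (SE, adjusted p = 0.00574), and -0.62 against WT replicates 5 to 8. Transcript level therefore parts the genotypes weakly, and the counts do not show the edited bases.

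A gene is said below to have risen or fallen where edgeR's quasi-likelihood test gave a Benjamini-Hochberg adjusted p under 0.05 and the fold change was over 2, and a gene that met the p alone is said to have passed at any fold. Of 23399 genes tested, 712 rose (3.04%) and 615 fell (2.63%) in LBRKO EpiLCs, 5.67% in all. Against WT replicates 5 to 8, 721 rose (3.08%) and 558 fell (2.38%). Against both sets 525 rose (2.24%) and 471 fell (2.01%), and for 374 (1.60%) and 396 (1.69%) of these the LBRKO and WT libraries did not overlap. At any fold 2581 genes were higher (11.0%) and 3313 lower (14.2%), and the median log2 fold change over all genes was -0.00052. LBRKO libraries held 40.8 to 48.1 M counts in genes, WT replicates 5 to 8 held 44.4 to 48.9 M, and WT replicates 1 to 4 held 25.4 to 33.5 M. Mitochondrial genes took 0.653% to 0.981% of counts in LBRKO and 0.505% to 0.799% in WT. On the first principal component of the 12 EpiLC libraries (27.5% of variance) all LBRKO libraries lay apart from all WT libraries.

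Several genes of naive pluripotency were higher in LBRKO EpiLCs than in WT EpiLCs. Of the 15 on the list, 5 rose and none fell, where 3.04% of all tested genes rose, and at any fold 9 were higher and 3 lower (median log2 fold change 0.76). Against WT replicates 5 to 8, 6 rose. In mES cells none of the 15 rose, 1 fell, and the median was -0.20. In bulk RNA, more cells in the naive state and more RNA per cell cannot be told apart.

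The nuclear receptor gene *Esrrb* (ENSMUSG00000021255.18, chromosome 12, 86407887 to 86568409, plus strand), which supports naive self-renewal, had 91.5, 95.3, 65.3 and 67.0 CPM in the LBRKO replicates. It ran from 13.9 to 19.3 CPM in WT with a median of 15.1. Every LBRKO library was thus above the highest WT library. The LBRKO mean was 79.8 ± 15.8 CPM (SD, n = 4), and the log2 fold change was 2.32 ± 0.088 (adjusted p = 2.24e-23). The level was still far under the 913 CPM of WT mES cells. *Nr0b1* (ENSMUSG00000025056.5, chromosome X, 85235338 to 85239554, plus strand), which encodes DAX1, a partner of naive transcription factors, had 58.5, 55.8, 30.6 and 40.7 CPM in LBRKO, and ran from 5.17 to 9.06 CPM in WT with a median of 6.64. Its log2 fold change of 2.77 ± 0.17 (adjusted p = 3.40e-16) was the larger of the pair, and replicates 1 and 2 came near the 83.4 CPM of WT mES cells.

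*Zfp42*, which encodes REX1, a widely used marker of naive cells, had 90.1, 82.2, 39.9 and 49.0 CPM in LBRKO, and ran from 19.3 to 26.1 CPM in WT with a median of 21.9. Replicates 1 and 2 held the higher levels of *Nr0b1* and *Zfp42*, as they did of *Lbr*, and replicates 3 and 4 the lower ones, which still lay above all WT libraries. *Zfp42* rose by 1.53 ± 0.13 (adjusted p = 2.81e-12), *Nr5a2*, a nuclear receptor upstream of *Pou5f1*, by 1.54 and *Tcl1*, an AKT co-activator, by 1.29. The *Tcl1* call was lost against WT replicates 1 to 4, at 0.98. The other naive factors moved less. *Tfcp2l1* had 33.3, 43.7, 33.2 and 19.06 CPM against 10.8 to 20.9 in WT (0.88) and missed the fold threshold, which it passed against WT replicates 5 to 8 (1.02). *Klf4* stood at 0.59. *Nanog* had 45.8 to 64.8 CPM in LBRKO and 45.0 to 107 in WT, and its direction turned with the WT set, at -0.47 against all 8 and 0.13 against replicates 5 to 8. The 3 members that were lower at any fold were *Nanog*, *Dppa3* (-0.79, at 0.970 CPM in WT) and *Tdh* (-0.40). Against WT replicates 5 to 8 the 2 lower members were *Tdh* (-0.67) and *Klf2* (-0.57). *Tfcp2l1*, *Klf4*, *Nanog*, *Dppa3*, *Tdh* and *Klf2*, and *Otx2*, *Fgf5*, *Tcf15*, *Sox1*, *Krt8*, *Krt18*, *Setdb1*, *Pphln1* and *Mael* below, were chosen after their values were seen.

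**Figure D1:**
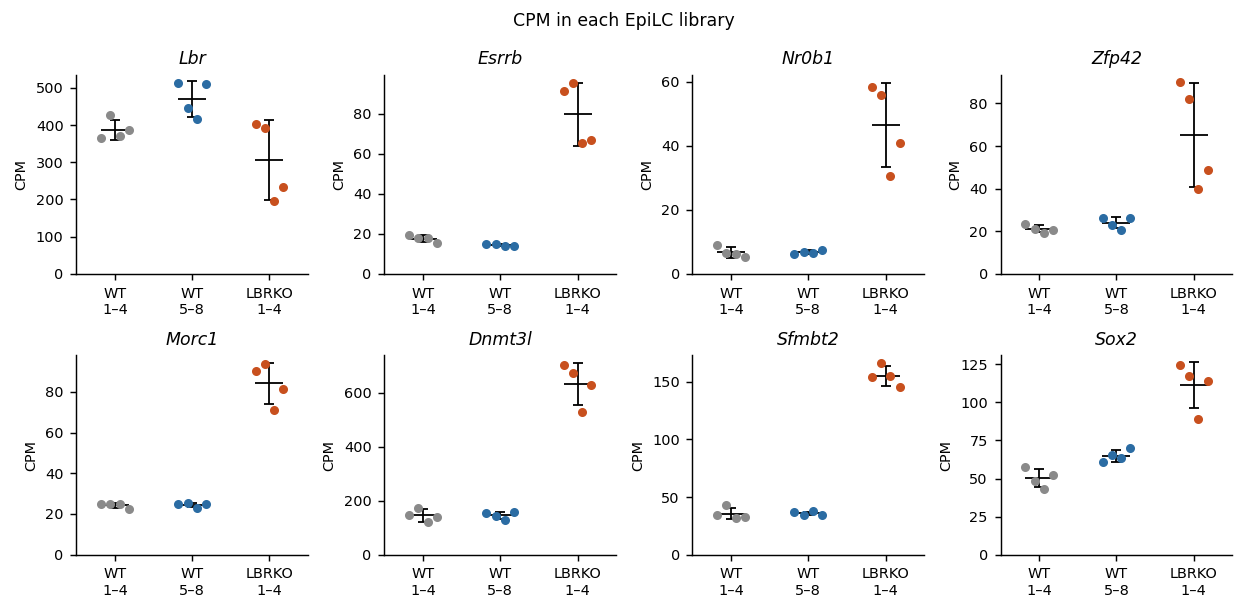
CPM of 8 genes (one panel each, linear axis from 0) in WT EpiLC replicates 1 to 4, WT replicates 5 to 8 and LBRKO EpiLCs. Each point is a library, and bars give the mean and SD. Except for *Lbr*, whose LBRKO libraries of 196 to 403 CPM reach into the WT range, every LBRKO library sits above every WT library.

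Promoter sequences of the 3 naive genes that moved together and are described by library above are given here to show the sequence at their starts. Binding of factors was not measured in these libraries. They come from RefSeq (GRCm38.p6) and run from 250 bases before to 50 after the start, 5′ to 3′ on the gene's strand. *Esrrb* has a pair of starts in that table and *Morc1* no entry.
Esrrb chr12:86360867-86361166 (plus strand): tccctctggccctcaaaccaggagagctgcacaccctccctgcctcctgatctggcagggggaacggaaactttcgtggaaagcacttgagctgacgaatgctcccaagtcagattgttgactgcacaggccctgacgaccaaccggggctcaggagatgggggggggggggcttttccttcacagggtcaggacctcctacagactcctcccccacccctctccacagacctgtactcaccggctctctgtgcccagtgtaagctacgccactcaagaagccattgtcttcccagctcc
Esrrb chr12:86421394-86421693 (plus strand): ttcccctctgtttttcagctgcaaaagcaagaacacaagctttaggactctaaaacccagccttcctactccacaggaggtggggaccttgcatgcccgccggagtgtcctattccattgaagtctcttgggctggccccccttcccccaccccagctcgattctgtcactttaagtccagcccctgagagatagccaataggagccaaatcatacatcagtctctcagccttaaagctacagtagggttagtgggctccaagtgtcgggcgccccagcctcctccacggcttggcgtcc
Nr0b1 chrX:86191525-86191824 (plus strand): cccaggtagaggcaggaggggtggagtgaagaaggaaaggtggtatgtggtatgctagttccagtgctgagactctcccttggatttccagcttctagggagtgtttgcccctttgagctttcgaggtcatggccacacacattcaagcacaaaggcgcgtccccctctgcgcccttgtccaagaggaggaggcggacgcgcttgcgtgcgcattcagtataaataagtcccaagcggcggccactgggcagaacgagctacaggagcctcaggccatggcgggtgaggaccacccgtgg
Zfp42 chr8:43306960-43307259 (minus strand): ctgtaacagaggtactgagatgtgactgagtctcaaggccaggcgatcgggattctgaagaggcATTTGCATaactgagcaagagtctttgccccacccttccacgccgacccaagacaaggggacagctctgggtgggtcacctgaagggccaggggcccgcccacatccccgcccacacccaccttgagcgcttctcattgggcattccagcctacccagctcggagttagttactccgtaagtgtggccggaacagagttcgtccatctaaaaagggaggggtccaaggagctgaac
Capitals mark the octamer ATTTGCAT, which OCT4 binds, found once, in the *Zfp42* promoter. On either strand, 1.74% of the 32851 promoters of this length hold it. The half-site AAGGTCA of ESRRB, held by 4.72% of promoters, and the E-box CACGTG, held by 7.15%, were not matched in these 4 windows. The windows were 60.0%, 55.3%, 58.7% and 57.7% G or C in the order printed, with 7, 7, 14 and 11 CpG dinucleotides, and the medians over all promoters were 52.7% and 7.

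Core factors and genes of the later epiblast were examined next. None of the 6 core pluripotency genes rose or fell by edgeR, with or without adjustment of p, or by DESeq2. *Pou5f1*, which encodes OCT4, stood at -0.079 (0.11 against WT replicates 1 to 4) and *Utf1* at 0.077. *Sox2* passed at any fold (0.95 ± 0.084, adjusted p = 6.91e-12), with 125, 117, 89.3 and 114 CPM in LBRKO against 43.4 to 70.2 in WT, without overlap. Of 13 formative and primed genes none rose or fell, again also without adjustment and by DESeq2, but at any fold 7 were lower and 1 higher (median -0.37), the latter being *Tcf15*, a factor of the epiblast and paraxial mesoderm (0.92 ± 0.16, adjusted p = 2.05e-05). The FGF ligand *Fgf5*, a defining gene of the post-implantation epiblast, had 83.0, 90.2, 80.0 and 89.6 CPM in LBRKO against 132 to 157 in WT (-0.77, adjusted p = 1.08e-09). *Otx2*, for a homeobox factor of the early epiblast, had 68.7, 68.8, 46.0 and 63.2 CPM against 92.6 to 152 (-0.95 with all WT, and -1.05, past both thresholds, with replicates 5 to 8). The de novo methyltransferase genes *Dnmt3a* (-0.34) and *Dnmt3b* (-0.40) and the zinc finger gene *Zic2* (-0.39) were lower at any fold. LBRKO cells thus carried the labelled epiblast-like expression, with *Fgf5* at 0.0949 CPM in WT mES cells.

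Among genes that passed against both WT sets without overlap and reached a mean of 5 CPM, the 12 with the highest fold were, in order, *Nlrc4* (2.81), *Nr0b1*, *Rhox6* (2.76), *Tex13b* (2.67), *Aire* (2.59), *Ace* (2.47), *Ngfr* (2.40), *Krt42* (2.36), *Vwa3b* (2.36), *Esrrb*, *Gna14* (2.30) and *Insc* (2.21). *Nlrc4*, an inflammasome sensor of bacterial proteins, had 24.2, 26.4, 19.6 and 22.0 CPM in LBRKO, against 1.26 to 1.91 in WT replicates 1 to 4 and 4.20 to 6.11 in replicates 5 to 8. The fold thus depends on the WT set, at 3.85 and 2.25. *Rhox6*, a homeobox gene of the X chromosome, had 11.6, 9.55, 6.77 and 11.3 CPM against 0.881 to 2.09 in WT. *Tex13b*, a testis gene of the X chromosome, had 7.15, 7.99, 8.86 and 7.94 CPM against 1.07 to 1.55. *Aire*, which drives expression of tissue antigens in the thymus, had 23.3, 23.6, 19.2 and 23.0 CPM against 3.08 to 4.90, with replicate 3 lowest. *Ace*, the angiotensin-converting enzyme, had 12.7, 12.7, 9.70 and 11.3 CPM against 1.41 to 2.94. *Ngfr*, the low-affinity neurotrophin receptor, had 8.45, 11.3, 7.59 and 7.94 CPM against 1.33 to 2.75. *Krt42*, a type I keratin, had 17.2, 15.7, 9.59 and 13.2 CPM against 1.97 to 3.96, and *Gna14*, a G protein alpha subunit, had 6.02, 7.56, 5.75 and 5.96 CPM against 0.911 to 1.75. *Insc*, which orients the mitotic spindle, had 12.7, 12.0, 9.22 and 10.4 CPM against 1.52 to 3.29, and *Vwa3b* had 17.8, 17.9, 13.0 and 16.3 CPM against 1.05 to 4.64.

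By the same rule the 12 lowest were *Fras1* (-2.59), *Amot* (-2.33), *Or2y7* (-2.18), *Nlrp9b* (-2.14), *Nrcam* (-2.13), *Stxbp6* (-2.03), *Gjb2* (-1.98), *Irs1* (-1.90), *Btbd17* (-1.84), *Rasef* (-1.79), *Fndc3c1* (-1.77) and *Pcdh8* (-1.76). Several act at the cell surface. *Fras1*, an extracellular matrix protein of epithelial basement membranes, had 1.29, 1.69, 2.01 and 1.55 CPM in LBRKO against 7.42 to 11.2 in WT. *Amot*, an angiomotin that holds YAP out of the nucleus at cell junctions, had 4.88, 4.80, 5.39 and 5.94 CPM, and ran from 20.6 to 28.3 CPM in WT with a median of 27.2. *Nrcam*, a neuronal cell adhesion molecule, had 3.63, 3.12, 4.81 and 4.83 CPM against 15.8 to 19.9 in WT. *Gjb2*, the gap junction protein connexin 26, had 1.77, 1.46, 1.67 and 1.38 CPM against 5.17 to 7.80, and *Pcdh8*, a protocadherin of the paraxial mesoderm and nervous system, had 0.908, 1.28, 2.03 and 1.77 CPM against 4.02 to 6.53. *Irs1*, the adaptor of the insulin and IGF1 receptors, had 3.11, 3.37, 4.35 and 3.17 CPM against 10.2 to 16.7. *Stxbp6* (amisyn, a SNARE regulator) had 4.04, 3.55, 5.69 and 5.73 CPM against 14.4 to 23.4. *Or2y7* (an olfactory receptor) and *Nlrp9b* (an NLR gene) belong to multigene families, and single members of these are uncertain where near copies leave few reads with a single alignment. They had 1.64 to 2.73 CPM against 8.02 to 11.7, and 1.30 to 1.90 against 4.94 to 9.05. *Btbd17*, *Rasef* and *Fndc3c1* lay between 1.11 to 1.99, 3.23 to 6.19 and 7.22 to 13.9 CPM in LBRKO, in that order, all under their WT libraries.

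**Figure D2:**
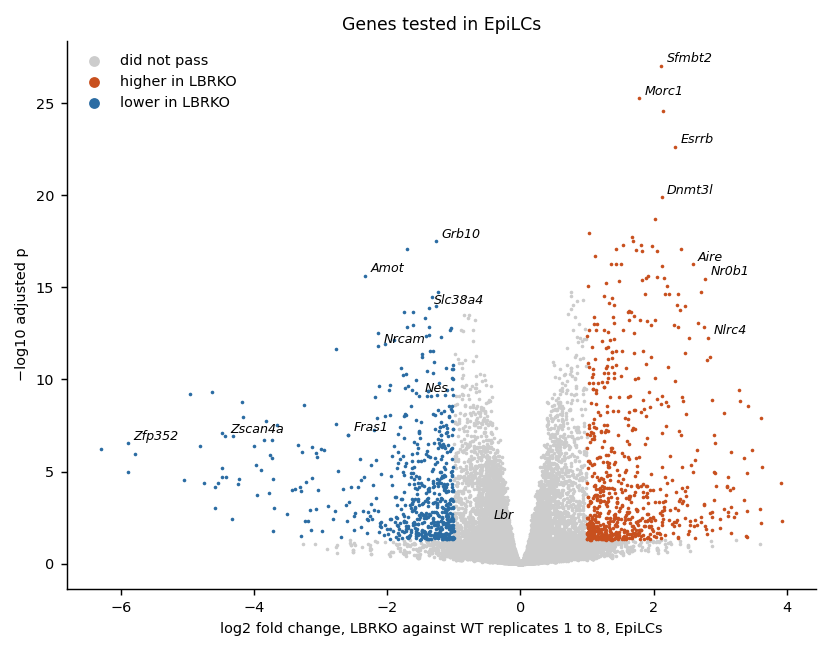
Log2 fold change of each tested gene in LBRKO against the 8 WT EpiLC libraries (x axis) and -log10 of its adjusted p (y axis), with genes past both thresholds coloured and named genes labelled. The 712 genes that rose lie to the right and the 615 that fell to the left.

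Genes of the signals that drive the passage were next examined. Of 13 nuclear receptor genes 3 rose (3.04% of all genes did), *Nr0b1*, *Esrrb* and *Nr5a2*, all of them also on the naive list, and none fell. *Lefty1* and *Lefty2*, which encode secreted inhibitors of Nodal, the ligand whose pathway Activin uses, and were chosen after their values were seen, stood at -0.63 (adjusted p = 0.0938) and -0.27 in EpiLCs. None of 15 FGF receptor and ERK feedback genes rose or fell, with or without adjustment and by DESeq2 (median 0.17). At any fold 4 were higher and 2 lower, where 11.0% and 14.2% of all genes were.

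Lineage genes beyond the epiblast were checked for other cell types in the wells. Of 14 tested neural progenitor genes 4 fell and 1 rose, where 2.63% and 3.04% of all genes did, and 4 and 2 did so against WT replicates 5 to 8. The intermediate filament gene *Nes* had 23.6, 25.1, 28.6 and 29.0 CPM in LBRKO, and ran from 68.2 to 84.3 CPM in WT with a median of 75.7. It fell in every LBRKO library (-1.51 ± 0.16, adjusted p = 7.97e-10), as did *Map2*, a microtubule protein of neurons (-1.22), and *Pax6*, a regulator of neuroectoderm (-1.17). *Zfp521*, a driver of neural conversion, stood at -1.10, and at -0.95 without LBRKO replicate 2, where the call was lost. *Sox21* rose by 1.57, from 1.30 to 3.88 CPM. *Sox1*, an early neural factor, also went the other way, with 49.8, 54.8, 43.0 and 48.2 CPM in LBRKO against 17.8 to 36.4 in WT. It passed at any fold against all WT (0.96 ± 0.15, adjusted p = 4.21e-06) and rose against WT replicates 5 to 8 (1.30). The summed level of the list was 246 to 267 CPM in LBRKO and 333 to 369 CPM in WT EpiLCs.

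Of 18 primitive endoderm genes 2 rose, where 3.04% of all genes did, and none fell: *Hnf4a*, a hepatic and visceral endoderm receptor, at 2.84 but at no more than 1.07 CPM in any EpiLC library, and the basement membrane collagen *Col4a2* at 1.25. The summed level of the list was 1465 to 1632 CPM in LBRKO and 1232 to 1562 CPM in WT EpiLCs, so the groups overlapped. Of 12 trophectoderm genes 3 rose, where 3.04% of all genes did, *Tead4* (1.32), *Gata3* (1.20) and *Gata2* (1.04), all transcription factors of that lineage, and none fell. At any fold 4 were higher and 2 lower, the latter being the keratins *Krt18* (-0.60, adjusted p = 5.08e-04) and *Krt8* (-0.27, adjusted p = 0.0206). *Gata2* missed the fold threshold against WT replicates 5 to 8 (0.97) and without LBRKO replicate 2 (0.99), LBRKO replicate 3 (1.00) or WT replicate 2 (0.98). *Gata3*, at 0.215 CPM in WT, missed it against WT replicates 1 to 4 (0.94) and without LBRKO replicate 4 (0.91). The list's summed level was 48.3 to 57.8 CPM in LBRKO and 51.3 to 61.7 CPM in WT EpiLCs. *Tead4* and *Gata2* lie on chromosome 6, described below.

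Of 12 tested mesendoderm and gastrulation genes none rose and 2 fell, where 2.63% of all genes fell (1 and 3 against WT replicates 5 to 8). These were the ligands *Wnt3* (-1.05) and *Wnt5a* (-1.03, at 0.496 CPM in WT). *Wnt3* missed the fold threshold against WT replicates 1 to 4 (-0.79) and without LBRKO replicate 3 (-0.94) or WT replicate 8 (-0.99). *Wnt5a* missed a threshold against WT replicates 1 to 4 and without any of LBRKO replicates 2 and 4 and WT replicates 4, 5, 6 and 8, at -0.75 to -0.997. Of 7 tested fibroblast markers, a check on feeder or stromal RNA, 2 fell, beside 2.63% of all genes, *Col1a1* (-1.12, and -0.94 against WT replicates 5 to 8, where the call was lost) and *Dcn* (-1.02). *Dcn* was under 2-fold without LBRKO replicate 1 (-0.99) or 2 (-0.98) and without WT replicate 2 (-0.96) or 8 (-0.99). Their summed level was 16.2 to 21.6 CPM in LBRKO and 23.6 to 32.5 CPM in WT EpiLCs, and the part of these cells in any result was not tested.

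Genes of the 2-cell-like state, a rare state of mES cell cultures that resembles the embryo at genome activation, were lower as a group. All 12 tested members of the list fell, against both WT sets, with a median log2 fold change of -3.77, where 2.63% of all genes fell. *Zscan4a* had 0.0681, 0.128, 0.0627 and 0.213 CPM in LBRKO against 1.88 to 3.45 in WT, and the list summed to 1.23 to 2.73 CPM in LBRKO and 17.6 to 27.2 CPM in WT EpiLCs. No LBRKO library reached a WT library. *Zscan4b* (-4.81), *Zscan4e* (-3.82), *Zscan4f* (-4.32), *Tcstv3* (-3.95) and *Zfp352* (-5.89) were among them. *Zscan4* genes are near copies, and reads with a single alignment alone were counted, so that each member is measured where it differs from the others. LBRKO libraries at or near 0 make the fitted values depend on the prior count. In LBRKO mES cells 8 of the 12 also fell (median -3.97), and none passed the test of the stage difference. Means of these genes in WT mES cells were 0.0215 to 0.297 CPM. At levels so near 0 that test could hardly find a difference, so it does not say whether the pattern is shared by the stages.

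Some genes that silence retrotransposons in the germline rose. Of 17 tested retrotransposon silencing genes 3 rose, where 3.04% of all genes did, and none fell. At any fold 5 were higher and 3 lower, and 5 and 5 against WT replicates 5 to 8. The 3 lower genes were *Setdb1*, an H3K9 methyltransferase (-0.33), *Pphln1*, a subunit of the HUSH complex (-0.71), and *Mael*, a piRNA pathway gene (-0.74). *Dnmt3l*, the catalytically inactive partner of the de novo methyltransferases, had 704, 673, 528 and 628 CPM in LBRKO, and ran from 119.6 to 174 CPM in WT with a median of 145 (2.12 ± 0.095, adjusted p = 1.27e-20). *Morc1* (ENSMUSG00000022652.8, chromosome 16, 48251600 to 48452291, plus strand), an ATPase that silences transposons in male germ cells, had 90.2, 93.9, 70.9 and 81.5 CPM in LBRKO, and ran from 22.3 to 25.4 CPM in WT with a median of 24.9 (1.78 ± 0.057, adjusted p = 5.38e-26). Neither gene's libraries overlapped between the genotypes. *Asz1*, a piRNA pathway protein encoded on chromosome 6, rose by 1.87. WT mES cells had 177 CPM of *Morc1* and 23.2 CPM of *Dnmt3l*, so that LBRKO EpiLCs kept *Morc1* between the WT stages and held *Dnmt3l* above both.

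Of 10 DNA methylation genes 2 rose (3.04% of all genes did), *Dnmt3l* and the methylcytosine dioxygenase *Tet2* (1.30), and none fell. None of 25 genes for H3K9 methylation and HP1 rose or fell, with or without adjustment and by DESeq2 (median -0.035). At any fold 7 of them were higher and 6 lower (4 and 6 against WT replicates 5 to 8), where 11.0% and 14.2% of all genes were. Of 21 germline and meiosis genes 2 fell (2.63% of all genes did) and none rose, the testis ADP/ATP carrier *Slc25a31* (-1.16) and the TFIID subunit *Taf7l* (-1.03). *Taf7l* missed the fold threshold against WT replicates 1 to 4 (-0.82) and without LBRKO replicate 1 (-0.94) or 2 (-0.92) or WT replicate 5 (-0.97) or 8 (-0.97). Of 25 tested genes for antiviral sensing and the interferon response 1 rose, a share near the 3.04% of all genes, *Oas2*, which makes 2-5A from double-stranded RNA (1.93, from 0.579 to 2.25 CPM), and none fell. At any fold 6 of this list were higher and 3 lower (6 and 2 against WT replicates 5 to 8). None of 19 p53 genes (median 0.18), 16 apoptosis genes (median -0.15) or 13 mitochondrially encoded genes (median 0.45) rose or fell, in each case also without adjustment and by DESeq2. At any fold 7 p53 genes were higher and 1 lower, and 1 apoptosis gene was higher and 3 lower. Of the mitochondrially encoded genes 2 were higher at any fold and none lower. In every list given here as having no gene in a direction, none passed that way without adjustment or by DESeq2 either, except for 1 antiviral gene that was lower without adjustment.

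Since LBR is itself a sterol reductase, genes of cholesterol synthesis and its control were listed. They were higher together, by less than 2-fold: none of 25 rose or fell at the fold threshold (nor without adjustment or by DESeq2), but at any fold 20 were higher and 1 lower, where 11.0% of all genes were higher. The median log2 fold change was 0.52, against -0.00052 over all genes. Against WT replicates 5 to 8, 19 were higher and 2 lower (median 0.33), where 9.53% of all genes were higher, and in mES cells the median was 0.14. *Hmgcs1*, which makes HMG-CoA, had 873, 956, 819 and 869.9 CPM in LBRKO, against 386 to 434 in WT replicates 1 to 4 and 602 to 715 in replicates 5 to 8. All LBRKO libraries lay above all WT libraries (0.72 ± 0.10, adjusted p = 4.01e-07), and the gap was smaller to the WT libraries of like depth (0.43). *Msmo1*, the methylsterol monooxygenase, stood at 0.85. *Srebf2*, whose product switches these genes on, stood at 0.13. *Tm7sf2*, which encodes the other sterol C14-reductase of the cell, stood at 0.17 against all WT and -0.091 against replicates 5 to 8.

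Of 23 other nuclear envelope genes none rose or fell, with or without adjustment and by DESeq2. At any fold 4 were higher and 3 lower, where 11.0% and 14.2% of all genes were. *Lmna*, which encodes lamins A and C, had 19.2, 18.4, 13.5 and 18.4 CPM in LBRKO against 9.28 to 13.0 in WT (0.62 ± 0.095, adjusted p = 2.13e-06), and replicate 3 lay below the other LBRKO libraries. The B-type lamin genes *Lmnb1* (0.056) and *Lmnb2* (0.026, and -0.013 against WT replicates 5 to 8) were close to WT.

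Of 30 tested imprinted genes 1 rose and 3 fell (2 and 3 against WT replicates 5 to 8), where 3.04% of all genes rose and 2.63% fell. The share that rose is thus near that of all genes, and the share that fell is above it. *Sfmbt2*, an imprinted gene described below, was not on this list. The listed gene that rose was the zinc finger gene *Zim1* (1.56). Those that fell were the amino acid transporter *Slc38a4* (-1.38), the growth factor receptor adaptor *Grb10* (-1.27) and *Phlda2* (-1.23), a brake on placental growth. Of 6 keratins, markers of epithelium, *Krt42* rose and *Krt7* fell (-1.001), where 3.04% and 2.63% of all genes did. The *Krt7* call was lost against WT replicates 5 to 8 (-0.94) and without LBRKO replicate 1 or 3 or any of WT replicates 1 to 4 (-0.999 to -0.86). Of 8 Y-linked genes *Usp9y* rose (1.32) and *Zfy1* fell (-2.77), where 3.04% and 2.63% of all genes did. At any fold 2 were higher and 4 lower, where 11.0% and 14.2% of all genes were.

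**Figure D3:**
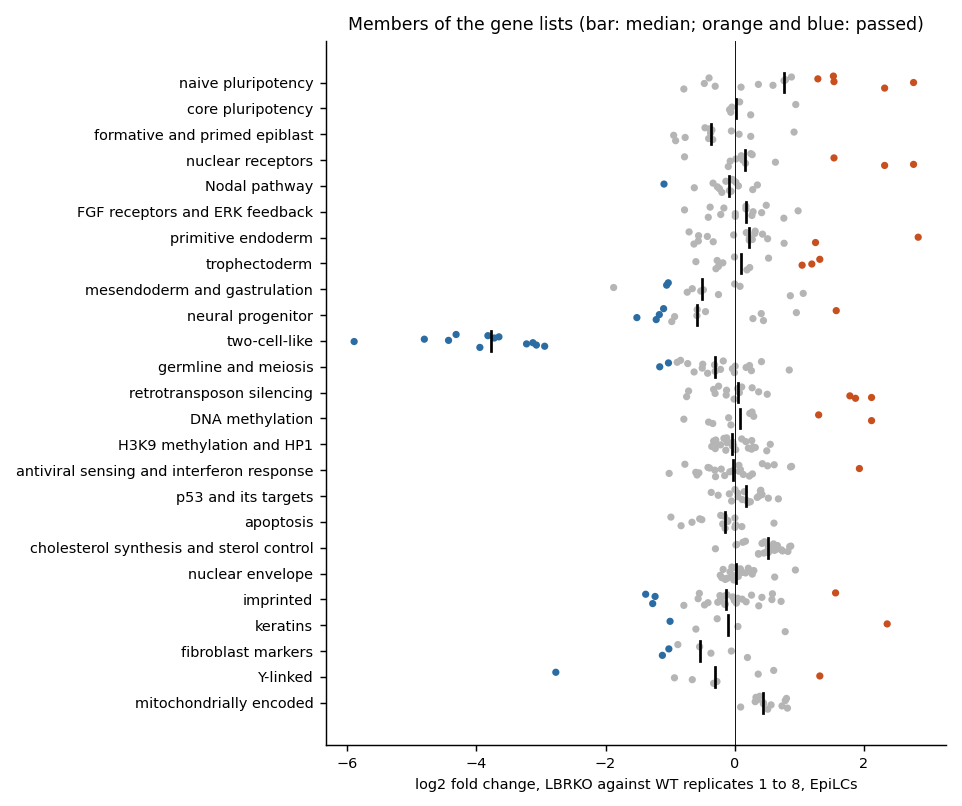
Log2 fold change of each tested member (points) of each gene list in LBRKO against WT EpiLCs, with a bar at the list's median, orange for members that rose and blue for those that fell. The 2-cell-like list lies below 0 throughout (median -3.77), and the naive and cholesterol lists lie mostly above it (medians 0.76 and 0.52).

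To ask whether the change is tied to the epiblast-like state, the LBRKO change in EpiLCs was compared with that in mES cells through an interaction term. It passed both thresholds for 1405 genes, of which 731 (3.12%) changed more positively in EpiLCs and 674 (2.88%) more negatively. Of the naive list 6 of 15 were more positive in EpiLCs and none more negative. In mES cells *Esrrb* (-0.058), *Nr0b1* (-0.17) and *Morc1* (-0.12) were near WT, and the differences between stages were 2.38, 2.94 and 1.91. *Dnmt3l* already stood 2.88 higher in mES cells, where it had 171 CPM against 23.2 in WT, and its stage difference of -0.76 passed at any fold (adjusted p = 9.69e-05) but not the fold threshold.

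Among genes that passed against both WT sets without overlap, reached a mean of 5 CPM and passed the stage test, the 5 with the most positive stage difference were *Gna14* (3.41), *Styxl2* (3.06), *Nr0b1* (2.94), *Krt42* (2.92) and *Nlrc4* (2.89), and the 5 most negative *Gjb2* (-2.87), *Or2y7* (-2.76), *Pcdh18* (-2.72), *Mal2* (-2.51) and *Astn1* (-2.50). *Gjb2* was 0.89 in mES cells and -1.98 in EpiLCs. *Lefty1* and *Lefty2*, which did not meet that rule, made a larger contrast: *Lefty1* had 0.0664 CPM in LBRKO and 20.6 in WT mES cells (-8.16), and 48.8 and 75.5 CPM in EpiLCs, a stage difference of 7.54, and that of *Lefty2* was 6.96. Both genes are neighbours of the edited *Lbr* gene, as given below. *Otx2* and *Fgf5* were also lower in LBRKO mES cells (-3.99 and -4.80, with 9.13 and 0.0949 CPM in WT) and stood at -0.95 and -0.77 in EpiLCs, with stage differences of 3.04 and 4.04. Genes that rose in EpiLCs and in mES cells numbered 96, which is 13.5% of the 712 and 13.4% of the 716 that rose in mES cells, where 3.06% of all genes did. Genes that fell at both stages numbered 159, which is 25.9% of the 615 and 20.9% of the 761 that fell in mES cells, where 3.25% did.

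**Figure D4:**
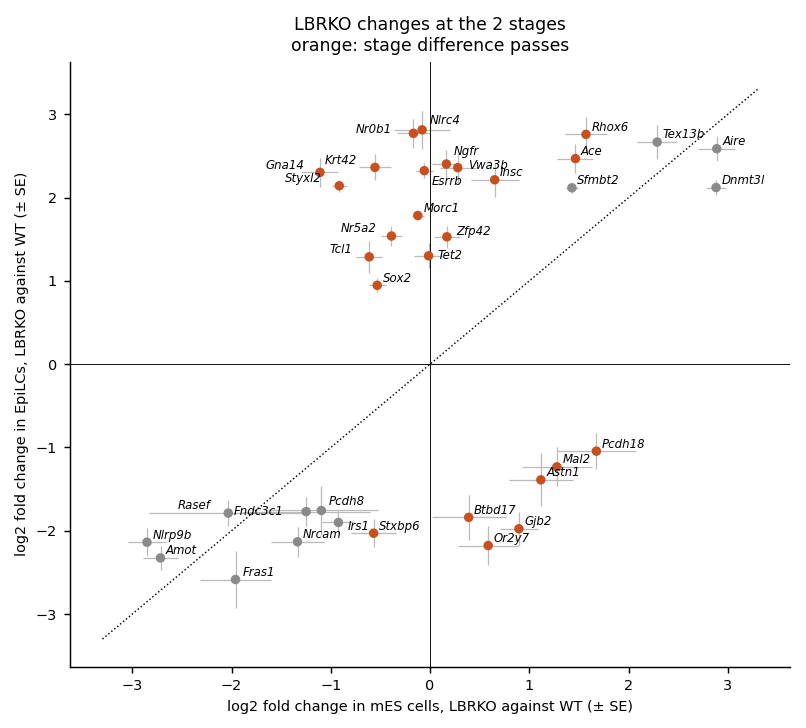
Log2 fold change of named genes in LBRKO against WT in mES cells (x axis) and in EpiLCs (y axis), with SE as bars and equality as a dotted line. Orange points passed the test of the stage difference. *Esrrb* and *Nr0b1* sit near 0 in mES cells and at 2.32 and 2.77 in EpiLCs, and *Dnmt3l* lies high on both axes.

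The LBRKO calls were then laid against the normal passage. So that no library served in both, calls against WT replicates 5 to 8 were used beside the change from mES cells to EpiLCs in WT replicates 1 to 4, in which 4146 genes rose (17.7%) and 2871 fell (12.3%). Of the 721 genes higher in LBRKO EpiLCs, 345 fell in the WT passage, which is 47.9% of the list and 12.0% of the genes that fell, and 74 (10.3%) rose. Of the 558 lower genes, 371 rose in the WT passage, which is 66.5% of the list and 8.95% of the genes that rose, and 56 fell. Among protein-coding genes it was 206 of 329 and 334 of 490. More of the higher genes were thus among those that fell than among those that rose in the WT passage, and more of the lower genes among those that rose. *Esrrb* changed by -5.66 in the WT passage, *Nr0b1* by -3.34, *Zfp42* by -3.76 and *Morc1* by -2.90, and *Nes* by 0.71 and *Fras1* by 2.86.

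By position, chromosome 6 stood apart from the other autosomes in its median. Its 1160 tested genes had a median log2 fold change of 0.37, against -0.090 to 0.077 on the other autosomes. Of them 88 rose (7.59%) and 16 fell (1.38%), where 3.04% and 2.63% of all genes did. The median was 0.37 against WT replicates 5 to 8 and 0.38 in mES cells. Chromosome 8 stood at 0.077, with 36 genes higher (2.89%) and 10 lower (0.804%) of 1244. Without chromosome 6, 624 genes rose and 599 fell, so most calls lie elsewhere. The karyotypes described in the methods include cells with an extra chromosome 6, and the part of copy number in these values was not tested. The X chromosome, with 839 tested genes, had a median of -0.017. Its shares were above those of all genes in both directions, with 53 higher (6.32%) and 51 lower (6.08%).

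By type of gene, 347 of 15477 protein-coding genes rose (2.24%) and 518 fell (3.35%), where 3.04% and 2.63% of all genes did. Of 3253 long noncoding RNAs 177 rose (5.44%) and 47 fell (1.44%). Of 2238 processed pseudogenes 83 rose (3.71%) and 16 fell (0.715%), and near-identical sequence makes it uncertain which of a pseudogene and its parent gene a read came from. Of 111 tested miRNA genes 14 rose (12.6%) and none fell. Of these, 11 lie inside *Sfmbt2*, a Polycomb-related imprinted gene whose intron holds a large miRNA cluster and which was chosen after its values were seen. *Sfmbt2* (ENSMUSG00000061186.16, chromosome 2, 10375306 to 10600064, plus strand) had 154, 166, 155 and 146 CPM in LBRKO, and ran from 32.2 to 43.1 CPM in WT with a median of 34.5. All LBRKO libraries were higher (2.12 ± 0.059, adjusted p = 9.05e-28), as were those of mES cells (1.43). Of the 119 miRNA genes annotated inside it, 12 were tested and 11 rose (9 against WT replicates 5 to 8), by 1.56 to 3.20, at no more than 0.795 CPM. In 6 of the 12 the libraries did not overlap, where 13.1% of all genes did not. Reads of an unspliced intron cannot be told apart from those of its hairpins in such counts, so that these are not measurements of mature miRNAs.

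Around *Lbr* itself, 1 of the other tested genes within 1000000 bp passed the thresholds in EpiLCs, where 5.67% of all genes did. *Cnih3*, which encodes an AMPA receptor auxiliary protein, stood at -1.24 (adjusted p = 0.0311), a call lost against WT replicates 5 to 8 (adjusted p = 0.0530) and without LBRKO replicate 1 (-0.96), 2 (-1.22) or 3 (-1.18) or WT replicate 1 (-1.16) or 7 (-1.13). *Lefty1* and *Lefty2* also lie within this distance, and both fell in LBRKO mES cells (-8.16 and -7.22). In LBRKO mES cells *Gm57186* (-4.91), *Tmem63a* (-1.45) and *Ephx1* (-1.12) there also fell, and *Gm37069* (1.38), *Capn2* (1.18) and *Susd4* (1.08) rose. Of all genes 3.25% fell and 3.06% rose in LBRKO mES cells, so calls in mES cells were more frequent around *Lbr*. Whether the edited locus bears on these values was not tested.

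LBRKO EpiLCs were set beside EpiLCs without lamins, each against the 4 WT libraries of like depth. These were WT replicates 5 to 8 for LBRKO and 1 to 4 for TKO and QKO, chosen by depth and not by any label. The change differed between LBRKO and TKO for 1109 genes (4.74%), of which 643 (2.75%) were more positive and 466 (1.99%) more negative in LBRKO. The lines also differ in karyotype, as given above, and the part of copy number in these differences was not tested. *Esrrb* was -0.76 in TKO, *Nr0b1* 0.078 and *Morc1* 0.19, and the differences between LBRKO and TKO were 3.23, 2.68 and 1.59. Of the 721 higher genes 25 also rose in TKO (3.47% of the list and 11.2% of the 223, 0.953% of all genes, that rose there), and of the 558 lower genes 66 also fell (11.8% of the list and 23.3% of the 283, 1.21% of all genes). In QKO EpiLCs, where 2983 genes rose (12.7%) and 1857 fell (7.94%), 373 of the higher genes also rose (51.7% of the list and 12.5% of the QKO list) and 277 of the lower genes also fell (49.6% and 14.9%).

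Few families of transposable elements (TEs) passed in LBRKO EpiLCs. In the table that spreads each read over the copies it matches, 1142 families were tested, and 10 rose (0.876%) and 3 fell (0.263%), with a median over all families of 0.32. Against WT replicates 5 to 8, 9 rose (0.788%) and 2 fell (0.175%). *MuRRS4-int*, the internal part of an ERV1 retrovirus, had 7.03, 7.18, 10.9 and 8.64 CPM in LBRKO against 18.8 to 27.2 in WT, without overlap (-1.43 ± 0.17, adjusted p = 9.81e-09). *MERVL-int*, the retrovirus active in 2-cell-like cells, had 65.4, 65.2, 124 and 92.1 CPM against 137 to 229.7 (-1.09), below the fold threshold against WT replicates 5 to 8 (-0.88) and without LBRKO replicate 1 (-0.95) or 2 (-0.96). In mES cells *MERVL-int* had a mean of 67.4 CPM in LBRKO and 64.0 in WT (0.074). Its stage difference of -1.16 passed both thresholds (adjusted p = 2.20e-04). The third that fell, *RLTR1B-int*, stood at -1.01 and lost the call without LBRKO replicate 1 (-0.92) or 2 (-0.91) or any of WT replicates 5 to 8 (-0.98 to -0.97). *IAPEy-int*, an intracisternal A particle, had 21.7, 17.6, 17.1 and 17.5 CPM against 4.98 to 10.3, without overlap (1.12). *IAPEY5_I* had 95.2, 42.0, 13.8 and 35.6 CPM against 4.40 to 24.2 (1.56), with an adjusted p of 0.153 and 0.96 without LBRKO replicate 1. *ERVB4_2-LTR_MM* (1.68) rested on the same library, with 20.9, 2.29, 2.69 and 2.13 CPM, and stood at 0.14 without it.

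By class, 2 of 25 IAP families rose and 1 of 8 MERVL and MT2 families fell, where 0.876% of all families rose and 0.263% fell. None of 8 young LINE-1, 5 ETn and MusD, 18 SINE B1 and B2 and 5 satellite families rose or fell by edgeR, with or without adjustment of p, and at any fold 3 of the young LINE-1 families were higher. The median log2 fold change of the young LINE-1 families was 0.25, under the 0.32 of all families, so the class as a whole was not higher than TE families in general. TEs took 8.01%, 7.84%, 12.7% and 9.68% of counts in the LBRKO replicates, and 7.12% to 10.2% in WT. The means of 9.56% ± 2.26 and 8.51% ± 0.985 (SD, n = 4 and 8) differed by 1.05 percentage points (exact permutation test, two-sided, p = 0.291, adjusted over 4 shares p = 0.393, smallest possible p 0.00202). Without LBRKO replicate 3 the difference was -0.0021. LINEs, SINEs and LTR elements taken singly gave adjusted p of 0.393, 0.393 and 0.913.

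For *L1MdA_I*, a young LINE-1 subfamily, the table of uniquely mapped copies was used, in which 776 of 4683 copies passed the filter. Of these, 17 rose (2.19%) and none fell, with 138 and 3 at an unadjusted p under 0.05, and 26 rose (3.35%) against WT replicates 5 to 8. Summed over copies, *L1MdA_I* had 215, 331, 467 and 589.7 CPM in LBRKO against 189.6 to 282 CPM in WT. Replicate 1 lay within the WT range and the others above it, so that the level varied more between LBRKO wells than between WT wells, and without replicate 3 the copies that rose numbered 3. By multimapped reads the family had 498, 528, 709 and 740 CPM in LBRKO against 308 to 453 in WT, without overlap. Its log2 fold change was 0.73 ± 0.15 (adjusted p = 2.15e-04), under the fold threshold, beside a median of 0.32 over all families. Against WT replicates 5 to 8 it was 0.90.

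**Figure D5:**
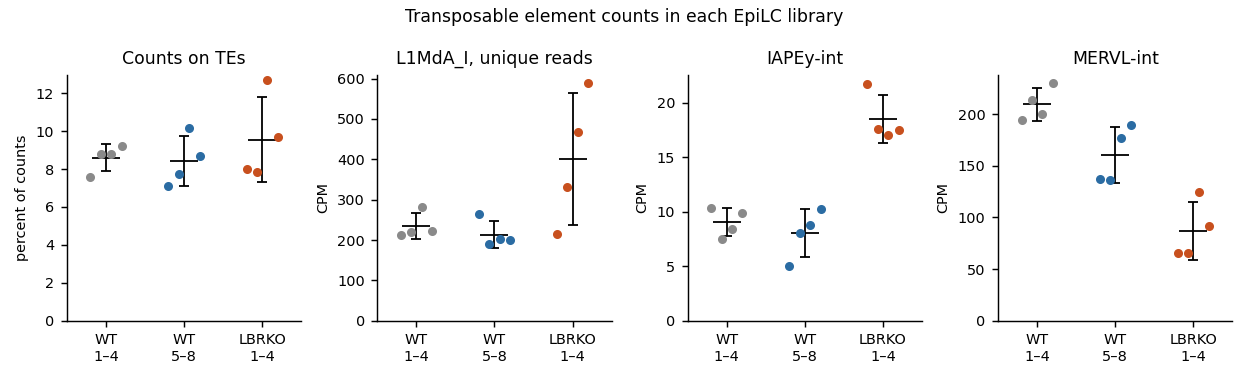
Percent of counts on TEs and CPM of *L1MdA_I* (unique reads), *IAPEy-int* and *MERVL-int* in WT EpiLC replicates 1 to 4, WT replicates 5 to 8 and LBRKO, 1 point a library, with mean and SD. The TE share of LBRKO overlaps WT, *IAPEy-int* lies above WT and *MERVL-int* below it in every LBRKO library.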

How the data were processed

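Total RNA, depleted of rRNA, was sequenced from 40 wells. The authors trimmed reads with cutadapt 2.5, aligned them to GRCm39 with STAR 2.7.10a and deposited raw counts per gene and per TE copy (featureCounts 1.6.4, unique alignments) and per TE family (TEcount, multimapped alignments). Their strand setting is not given in the sources used here. Overlapping and antisense genes are therefore uncertain, and so are members of multigene families (*Zscan4*, *Rhox*, *Magea*), whose ambiguous reads were left out.

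Genes were tested with edgeR 4.0.16 in R 4.3.3 (quasi-likelihood, TMM, filterByExpr, 40 libraries, a mean for each of 8 groups, or of 10 with WT split by depth), with SE as the log2 fold change over the root of F. TE families were fitted together with genes. *L1MdA_I* copies used the scaling of genes. On simulated counts, with changes placed only in genes at a mean of 1 CPM or more, 92% of 2.5-fold changes were called. There were 5 false calls over 22968 genes. Changes of 1.5-fold lie under the fold threshold, and none were called, though 78% had an adjusted p under 0.05. Recovery of changes in genes under 1 CPM was not simulated. Names and positions are from GENCODE M39, in which 56017 of 56748 gene IDs were found.

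Named genes were list members, the 12 strongest in each direction and the 5 strongest stage differences, past both WT sets, not overlapping and at a mean of 5 CPM. The members, lists and rules were chosen with earlier results of these data known. Settings tried were WT sets, size factors, DESeq2 1.42.0, filters, the libraries fitted, a replicate block and leaving out each library, and, added after seeing the data, leaving out chromosome 6. Libraries held 25.4 to 48.9 M counts in genes. Replicates differed by more than counting noise (chi-square per gene of 6.55 to 83.0 between libraries of a group), so the spread between wells set the precision. Results for a few genes are not reported here.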

Additional observations from a re-analysis of the deposited data

Results flagged for a closer look

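Among 220 groups of 4 or 8 EpiLC libraries examined, a single library stood far from the rest of its group in 16, where chance gives about 1 in 20, or 11.0. In LBRKO, replicate 3 was apart in 5 genes: lowest for *Aire* (19.2 CPM) and *Lmna* (13.5 CPM), and highest for *Fndc3c1* (13.9 CPM), *Klf4* (12.4 CPM) and *Mal2* (4.81 CPM). Replicate 2 was highest for *Gna14* (7.56 CPM) and lowest for *Zscan4f* (0 CPM), and replicate 1 was highest for *Zfp352* (0.0227 CPM) and for the families *IAPEy-int* (21.7 CPM) and *ERVB4_2-LTR_MM* (20.9 CPM). *Zfp352* and *Zscan4f* were near 0 in all LBRKO libraries. In WT, replicate 1 was lowest for *Amot* (20.6 CPM) and highest for *Zfp521* (3.18 CPM), replicate 2 highest for *Ngfr* (2.75 CPM), replicate 7 highest for *Klf4* (15.6 CPM), and replicate 8 lowest for *Fndc3c1* (22.8 CPM) and *Tfcp2l1* (10.8 CPM).

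The LBRKO change differed between the stages, by the interaction term and the thresholds used above, for 41 of the named genes. In 29 the log2 change was more positive in EpiLCs than in mES cells. The differences were *Lefty1* (7.54), *Lefty2* (6.96), *Fgf5* (4.04), *Gna14* (3.41), *Sox21* (3.17), *Styxl2* (3.06), *Otx2* (3.04), *Nr0b1* (2.94), *Krt42* (2.92), *Nlrc4* (2.89), *Esrrb* (2.38), *Ngfr* (2.24), *Vwa3b* (2.08), *Nr5a2* (1.93), *Morc1* (1.91), *Tcl1* (1.90), *Oas2* (1.84), *Insc* (1.56), *Sox2* (1.48), *Hnf4a* (1.44), *Zfp42* (1.36), *Pax6* (1.34), *Tet2* (1.32), *Rhox6* (1.19), *Asz1* (1.17), *Gata3* (1.10), *Tcf15* (1.01), *Tead4* (1.00) and *Ace* (1.00). In 12 it was more negative, by the differences *Gjb2* (-2.87), *Or2y7* (-2.76), *Pcdh18* (-2.72), *Mal2* (-2.51), *Astn1* (-2.50), *Btbd17* (-2.23), *Col1a1* (-2.03), *Taf7l* (-1.80), *Stxbp6* (-1.46), *Krt8* (-1.37), *Krt18* (-1.31) and *Zfp521* (-1.25).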

How the results depend on the processing

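The count of 1327 changed genes was 1329 with DESeq2's size factors, 1325 by library size, 1431 by DESeq2, 1440 without the filter, 943 at 1 CPM in 4 libraries, 1132 with the 12 EpiLC libraries alone and 1207 without chromosome 6. No gene was called in the opposite direction in any of these. Leaving out each library gave 1234 to 1430 genes, 1041 to 1443 against WT replicates 5 to 8, 1248 to 1543 for the stage difference and 1016 to 1183 for LBRKO against TKO. LBRKO and TKO set directly against each other differed in 1861 genes. Called TE families numbered 21 against WT replicates 1 to 4, 11 by DESeq2, and 9 to 20 on leaving out a library (20 without LBRKO replicate 1). *L1MdA_I* copies numbered 26 against WT replicates 5 to 8, 1 at 10-fold, and 3 to 21 on leaving out a library (3 without LBRKO replicate 3, and 11 without LBRKO replicate 2, WT replicate 4 or WT replicate 8). The TE share differed by -0.0021 to 1.62 percentage points, the former without LBRKO replicate 3.

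Directions turned where the change was near 0: *Lmnb2* (-0.013 against WT replicates 5 to 8, and -0.023 to 0.081 on leaving out a library, with -0.0073 without LBRKO replicate 2 and the lowest without LBRKO replicate 1), *Pou5f1* (0.11 against WT replicates 1 to 4, with or without the replicate block), *Tm7sf2* (-0.091 against WT replicates 5 to 8) and *Nanog* (0.13 against WT replicates 5 to 8). Causes were not tested. Calls of *Tet2*, *Gata3*, *Cnih3*, *Dcn*, *Krt7*, *Pcdh18*, *Taf7l*, *Wnt3* and *Wnt5a* were also lost in other settings. LBRKO and WT replicates 1 to 4 of the same number did not deviate together (r of 0.22, -0.058, 0.038 and 0.0021), nor did every LBRKO library correlate best with its own number, so same-numbered libraries were not treated as pairs. With WT replicates 5 to 8 taken in order, r was -0.11, 0.26, 0.46 and 0.22. The labels do not pair those libraries, and no block was fitted to them. With a replicate block 1194 genes passed and without it 1172 in the same 8 libraries. Depth limits genes under 1 CPM most.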

Other observations

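Families of related genes were also read after their values had been seen, so they carry no test of their own. *Rhox* homeobox genes form a cluster on the X chromosome and are expressed in germ and extraembryonic tissue. Of 8 tested entries of this name 6 rose in LBRKO EpiLCs and none fell, where 3.04% of all genes and 6.32% of those on the X chromosome rose. Those that rose include *Rhox7-ps2* and *Rhox2-ps*, which are named as pseudogenes and had means of 0.827 and 0.734 CPM in LBRKO. *Rhox5* had 227, 198, 170.5 and 265 CPM in the LBRKO replicates, with a mean of 215 CPM against 69.4 CPM in WT (1.64, adjusted p = 1.98e-06), and was at 30.7 CPM in WT mES cells. The fold depends on the WT set, since WT replicates 1 to 4 held 78.4 to 118 CPM and replicates 5 to 8 held 35.9 to 51.6 CPM, against which the change was 2.29. *Rhox1* stood at 1.96 and *Rhox9* at 1.38. Of 8 *Magea* genes, X-linked cancer-testis antigens, 6 rose and none fell, at levels under 1 CPM on average, with *Magea4* at 0.347 CPM in WT and 1.88 CPM in LBRKO (2.41). In the WT passage 7 of the 8 fell. Members of these families are near copies, counted by reads with a single alignment, and the X chromosome as a whole had near equal numbers higher and lower.

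Of 28 *Platr* genes, long noncoding RNAs first described as pluripotency-associated transcripts, 7 rose and none fell in EpiLCs, where 3.04% of all genes and 5.44% of long noncoding RNAs rose. Against WT replicates 5 to 8, 6 rose, since *Platr28* passed neither threshold there (0.50), and in mES cells none rose and 1 fell. *Platr26* stood at 2.80, *Platr7* at 1.26 (3.60 against 1.49 CPM) and *Platr23* at 1.18.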
